A study of Mus musculus with 6 samples.

Results

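The DNA replication machinery was examined as a set of 48 genes, chosen by gene name, out of 49671 genes in the expression and allelic read tables of a mouse T cell study. The set runs from the origin recognition complex through the licensing factors, the MCM2-7 helicase and its activators, the replicative polymerases and primase, the sliding clamp and its loader, the single-strand binding protein RPA and the enzymes of Okazaki fragment maturation to fork protection factors and chromatin assembly factor 1. Stimulated samples were splenic CD3+ T cells after 48 h in culture with plate-bound anti-CD3 at 1 µg/ml and soluble anti-CD28 at 10 µg/ml, antibodies that trigger the T cell receptor and the receptor CD28. Unstimulated samples were the same kind of cells taken into lysis reagent straight after isolation, without culture, so the antibodies and the time in culture differ together between the groups. There were 3 biological replicates in each group, and since the labels do not say that these were separate animals, p-values measure the spread between these samples. All mice were F1 females, strain label F1 mus x cast, from C57BL/6 mothers (mus) carrying 1 deleted copy of Xist, which encodes the RNA that silences an X chromosome, and castaneus fathers (cast). A daughter that inherits the deletion silences the cast X in its cells, and both groups share this design. The cells were enriched on columns, not sorted, so that other spleen cells can remain.

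A eukaryotic chromosome is copied from many origins, which the origin recognition complex (ORC) marks and on which CDC6 and CDT1 load the ring-shaped MCM2-7 helicase in G1. In S phase, kinases together with CDC45, GINS and MCM10 switch the helicase on, DNA polymerase alpha with primase starts each strand, and polymerases delta and epsilon extend them on the PCNA clamp. Naive T cells rest outside the cell cycle, and stimulation through the T cell receptor and CD28 is known to bring them into S phase. Transcription of many replication genes is known to depend on E2F factors, which the retinoblastoma protein family restrains in resting cells.

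The labelled cell type was checked against its markers. All 15 T cell markers had at least 1 RPKM (reads scaled to gene length and library size) in every stimulated library and summed to 1722 to 1797 RPKM in stimulated libraries, against 1749 to 2148 RPKM in unstimulated libraries. Across all 13288 genes tested with limma (Benjamini-Hochberg adjusted p under 0.05), 4148 were higher and 6494 lower in stimulated libraries. Centring each library on its median gave 5432 higher and 5206 lower genes instead, and quantile normalisation gave 5394 and 4878. The log2 fold change of the median gene was -0.24 as deposited, 0.018 with centring and 0.037 with quantile normalisation. Of the 15 T cell markers, with limma on the values as deposited, 3 were higher, 8 were lower and 4 did not pass. Reads assigned to 1 of the 2 alleles numbered 14.9 M to 20.2 M (M, mega) in stimulated libraries and 9.61 M to 11.9 M in unstimulated libraries.

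Almost the whole replication machinery was higher in the stimulated cells. Of the 48 genes, 47 passed the limma test, which compares with 80.1% of all genes tested, and 46 of them rose, against 31.2%. Orc4 was the 1 gene that fell, against 48.9% of all genes tested, and Orc5 was the 1 gene that did not pass. The median log2 fold change of the set was 1.63, with quartiles of 1.01 and 2.15, while the median of all genes tested was -0.24. At a rise of at least 2-fold there were 36 of the 48 genes, against 12.4% of all genes tested. In 46 genes every stimulated library lay above every unstimulated library, against 32.7% of all genes tested, and in 1 gene, Orc4, every one lay below, against 50.7%. Fold changes are given as the difference between group means of log2(RPKM + 1), a scale that understates the change of genes with low levels. Bulk RNA cannot tell apart fewer cells that express a gene and less RNA of it per cell.

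**Figure D1:**
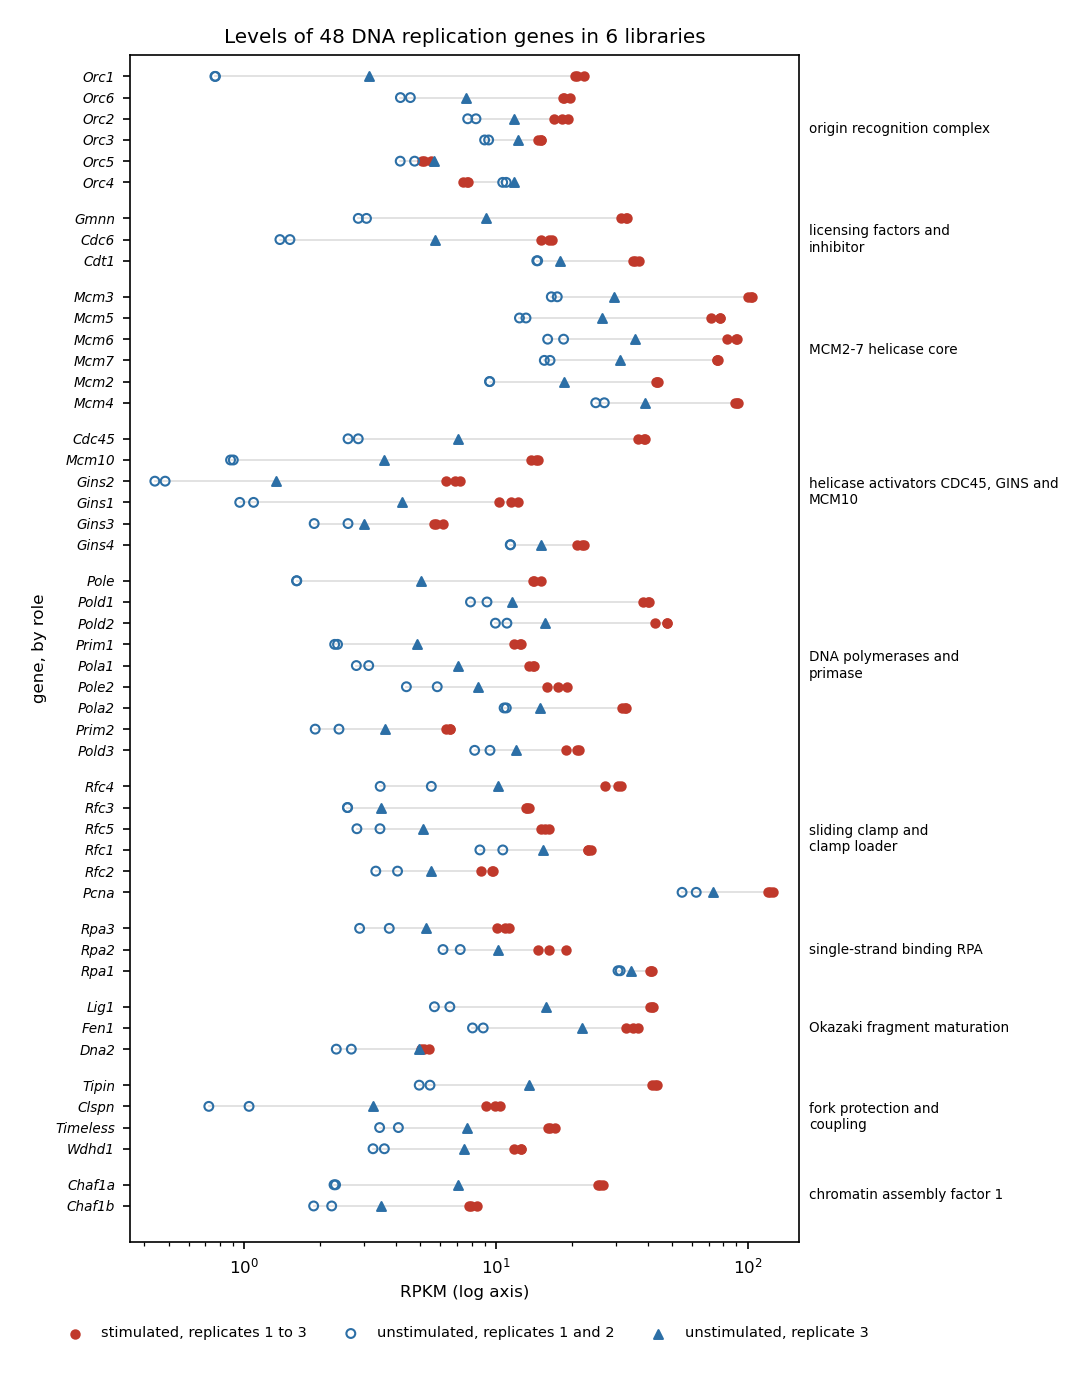
RPKM on a log axis for each of the 48 genes, grouped by role, with 1 point per library (filled circles: stimulated replicates 1 to 3; open circles: unstimulated replicates 1 and 2; triangles: unstimulated replicate 3). The stimulated points lie to the right of the unstimulated ones in 46 genes, Orc4 runs the other way, Orc5 overlaps, and the triangle is the highest unstimulated point in all 48 genes.

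The unstimulated libraries were not alike for these genes. Summed over the 48 genes, levels were 1442, 1433 and 1404 RPKM in stimulated libraries, against 378, 390.4 and 630 RPKM in unstimulated libraries. Unstimulated replicate 3 was thus the highest of its group, and it was so in each of the 48 genes, against 54.7% of all genes tested. Its level was a median of 1.73 times the mean of unstimulated replicates 1 and 2, with a range from 1.09 for Orc4 to 4.14 for Gins1, and 1.08 times over all genes tested. The median coefficient of variation over the 48 genes was 3.36% in stimulated libraries and 34.1% in unstimulated libraries, against 6.62% and 11.7% over all genes tested. Without unstimulated replicate 3 the set still had 46 genes higher and 1 lower in stimulated libraries, with a median log2 fold change of 1.92.

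Other lists moved with that library. All 26 genes of a mitotic list were highest there among unstimulated libraries, at a median of 3.89 times the other 2, and this list summed to 753 to 787 RPKM in stimulated libraries, against 66.1, 62.8 and 212 RPKM in unstimulated libraries. The same held for all 9 neutrophil precursor markers, at a median of 6.29 times, with summed levels of 0.0911 to 0.770 RPKM in stimulated libraries and of 109, 139 and 756 RPKM in unstimulated libraries. Ngp, Camp and Elane of that list were at 0 in all stimulated libraries. It held also for all 16 erythroid precursor markers, at a median of 5.37 times, with sums of 4.47 to 16.6 RPKM in stimulated libraries and of 132, 888 and 1670 RPKM in unstimulated libraries. With limma, 8 of 8 tested neutrophil precursor markers, 13 of 14 erythroid precursor markers and 12 of 12 myeloid markers fell. So did 11 of 12 B cell markers and 8 of 9 NK cell markers, while 1 NK cell marker rose. Of 7 plasma cell markers 5 fell and 1 rose, and of 4 tested germinal centre B cell markers 2 fell and 1 rose. The share that fell over all genes tested was 48.9%. Myeloid markers summed to 2.85 to 4.65 RPKM in stimulated libraries and 1282 to 3595 RPKM in unstimulated libraries, with Retnlg and Adgre1 at 0 in all stimulated libraries. B cell markers summed to 12.5 to 25.7 RPKM in stimulated libraries and 132 to 262 RPKM in unstimulated libraries. NK cell markers summed to 253 to 274 RPKM in stimulated libraries and 441 to 573 RPKM in unstimulated libraries. None of the 15 T cell markers was highest in that library, where they stood at a median of 0.84 times the other 2. The part of these other cells in the levels of the replication genes in unstimulated libraries was not tested.

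**Figure D2:**
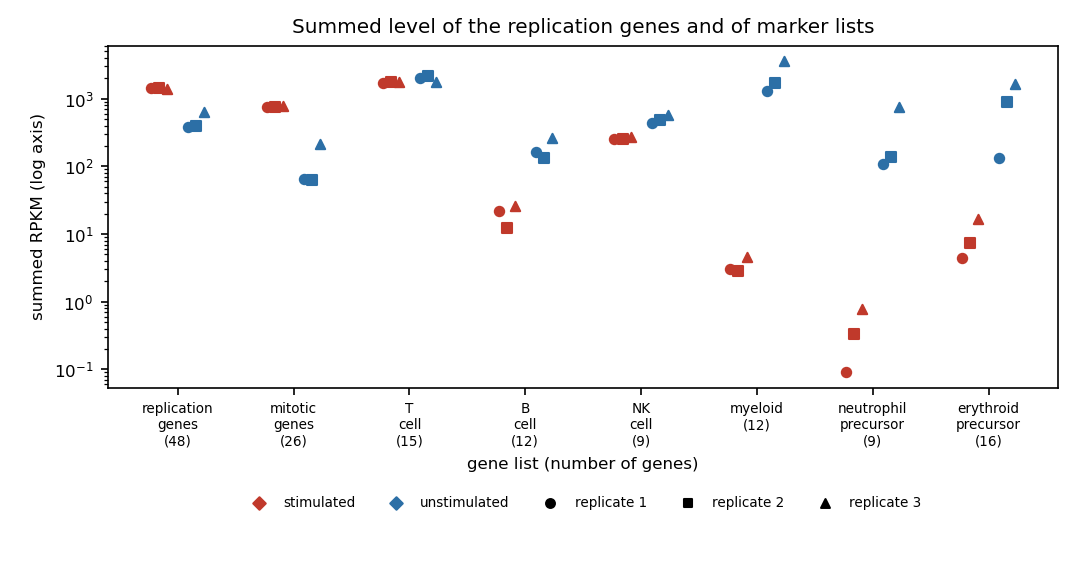
Summed RPKM on a log axis for the 48 replication genes and for 7 other gene lists, 1 point per library (red: stimulated; blue: unstimulated; circle, square and triangle: replicates 1, 2 and 3). The replication and mitotic lists are higher in stimulated libraries, the B cell, NK cell, myeloid, neutrophil precursor and erythroid precursor lists are lower there, and unstimulated replicate 3 is the highest unstimulated library for every list but that of T cells.

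The letters of the promoters are shown because E2F factors are known regulators of many replication genes. RefSeq promoter windows on GRCm38.p6, from 250 bases before to 50 bases after a transcript's start, were matched by symbol for 39 of the 48 genes, and not for Gins1, Gins2, Gins4, Gmnn, Mcm4, Pole, Prim2, Rfc2 and Tipin. The windows were searched on both strands for the E2F motif spelled TTTCCCGC, TTTGGCGC, TTTCGCGC or TTTGCCGC, whose copies may overlap. At least 1 copy was found in 16 of the 39 genes (41.0%), compared with 704 of 27025 genes with a window (2.60%) and 414 of 8457 genes that also entered the expression test (4.90%). In 9 of the 16 genes a copy lay before the RefSeq start, and 60 bases around it are given here, 5′ to 3′ on the gene's strand, with the motif or its reverse complement in capitals.
Orc1, chr4:108579394-108579453, plus strand: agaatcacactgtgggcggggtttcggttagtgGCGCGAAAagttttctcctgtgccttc
Orc3, chr4:34614950-34615009, minus strand: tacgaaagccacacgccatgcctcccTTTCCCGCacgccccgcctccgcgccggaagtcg
Cdc6, chr11:98907987-98908046, plus strand: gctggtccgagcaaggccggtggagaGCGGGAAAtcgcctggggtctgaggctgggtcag
Mcm5, chr8:75109334-75109393, plus strand: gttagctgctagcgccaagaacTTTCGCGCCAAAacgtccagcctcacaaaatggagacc
Mcm6, chr1:128359719-128359778, minus strand: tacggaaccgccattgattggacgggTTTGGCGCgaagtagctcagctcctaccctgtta
Mcm7, chr5:138172015-138172074, minus strand: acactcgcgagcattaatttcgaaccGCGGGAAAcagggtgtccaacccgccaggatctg
Gins3, chr8:95633492-95633551, plus strand: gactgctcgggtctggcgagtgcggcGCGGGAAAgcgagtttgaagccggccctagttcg
Pola1, chrX:93632260-93632319, minus strand: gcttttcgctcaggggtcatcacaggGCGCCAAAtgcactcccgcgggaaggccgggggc
Rfc3, chr5:151651209-151651268, minus strand: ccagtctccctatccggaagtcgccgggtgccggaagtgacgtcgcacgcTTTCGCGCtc
In the Mcm5 window, 2 overlapping copies form 1 run of capitals. GENCODE M21 places gene starts differently, and 5 of these copies (Orc1, Cdc6, Mcm7, Gins3 and Rfc3) lie inside the gene by that annotation and 4 before it. In the other 7 genes with a copy (Cdt1, Clspn, Lig1, Mcm3, Pold1, Pold3 and Pole2) it lay after the RefSeq start only. Shorter forms, the same letters without the first T, were in 26 of 39 genes (66.7%), against 10.9% of all genes with a window and 19.8% of those tested. The letters CCAAT were in 59.0% of the 39 genes, 41.1% of all and 42.9% of those tested. GC boxes, GGGCGG, were in 71.8%, 38.2% and 69.1%, and TTTGAA, the core of the CHR element of late cell cycle genes, in 12.8%, 20.2% and 14.2%. The median log2 fold change was 1.92 over the 16 genes with a copy of the longer motif and 1.38 over the 23 without, with ranges from 0.52 to 3.25 and from -0.50 to 3.02. Some genes without the longer motif carry a shorter form, among them Chaf1a and Orc4. A match describes the letters and is not a measured site of binding, and its part in the rise was not tested.

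The subunits of the origin recognition complex did not move together. Among the 6 genes there were 4 rises, 1 fall and 1 gene that did not pass, at a median log2 fold change of 0.72. Orc1, whose product is the ATPase subunit that comes and goes with the cell cycle in mammalian cells, had 22.4, 20.9 and 20.7 RPKM in stimulated libraries, against 0.764, 0.768 and 3.14 RPKM in unstimulated libraries. The groups lay far apart, and Orc1 had the largest rise of the 48 genes (log2 fold change 3.25, SE 0.33, limma adjusted p = 0.000109), a 13.7-fold difference of mean RPKM. It lies on chromosome 4 at 108579423 to 108614833 (mm10, plus strand). Orc6, the smallest subunit, and Orc2 and Orc3, core subunits, rose by log2 values of 1.67, 0.92 and 0.52.

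Orc4, which encodes another core subunit, had 7.37, 7.73 and 7.65 RPKM in stimulated libraries, against 10.6, 10.97 and 11.8 RPKM in unstimulated libraries. All stimulated libraries were lower (log2 fold change -0.50, SE 0.06, limma adjusted p = 0.00035), as they were with median centring (-0.24) and with quantile normalisation (-0.32), but not on summed allelic counts, where edgeR gave 0.017 (adjusted p = 0.851) and DESeq2 -0.010 (adjusted p = 0.931). Its exons overlap those of Mbd5 and Acvr2a on the opposite strand, and both partners were also lower, with Mbd5 at 1.06 to 1.20 RPKM in stimulated libraries and 2.47 to 3.21 RPKM in unstimulated libraries. Orc5, a further core subunit gene, had 5.15, 5.52 and 5.06 RPKM in stimulated libraries, against 4.16, 4.74 and 5.68 RPKM in unstimulated libraries. The groups overlapped through unstimulated replicate 3, and the log2 fold change of 0.10 (SE 0.11) did not pass (limma adjusted p = 0.423). It did pass once libraries were centred on their medians (0.36, limma adjusted p = 0.00458) or quantile normalised (0.43, limma adjusted p = 0.00228).

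Licensing genes rose unevenly, with the largest value for the inhibitor and Cdc6 close to it, and differences between genes were not tested. All 3 genes passed, with a median log2 fold change of 2.31. Gmnn encodes geminin, which binds CDT1 and blocks the loading of new helicases after S phase has begun, and had 33.3, 32.9 and 31.3 RPKM in stimulated libraries, against 2.83, 3.06 and 9.08 RPKM in unstimulated libraries. The groups did not overlap (log2 fold change 2.63, SE 0.36, limma adjusted p = 0.000469). Cdt1, the helicase loader that geminin inhibits, had 34.9, 35.5 and 37.0 RPKM in stimulated libraries, against 14.6, 14.5 and 17.9 RPKM in unstimulated libraries. It rose less (1.15, SE 0.09, limma adjusted p = 3.27e-05), and it was the most abundant licensing gene in both groups. Cdc6, the ATPase that works with ORC in loading, rose by 2.31 (SE 0.39, limma adjusted p = 0.00133).

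The balance between partner genes differed between the groups as well, in pairs picked after their levels were seen and described here without a test. The ratio of Gmnn to Cdt1 RPKM was 0.953, 0.926 and 0.847 in stimulated libraries, against 0.194, 0.211 and 0.507 in unstimulated libraries. The inhibitor's transcript was thus near the level of its target's in stimulated cells and well under it in unstimulated ones. Orc1 to Orc4 stood at 3.04, 2.71 and 2.701 in stimulated libraries, against 0.0719, 0.0700 and 0.267 in unstimulated libraries. By mean RPKM Orc1 was the most abundant of the 6 ORC genes in stimulated cells and the least abundant in unstimulated cells. Its lead in stimulated replicate 3 was narrow (20.7 RPKM, against 19.7 RPKM for Orc6). Cdc6 to Orc2 stood at 0.918, 0.837 and 0.885 in stimulated libraries, against 0.179, 0.182 and 0.489 in unstimulated libraries. Unstimulated replicate 3 had the highest unstimulated ratio in each of these 3 pairs, and no pair overlapped between the groups.

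**Figure D3:**
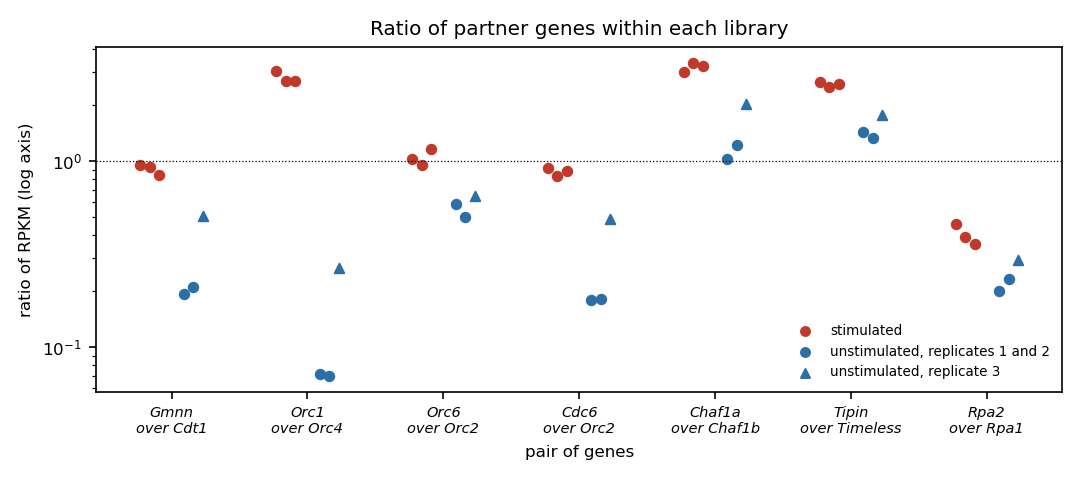
Ratio of the RPKM of 2 partner genes within each library, on a log axis, for 7 pairs (red: stimulated; blue: unstimulated, with replicate 3 as a triangle; dotted line: equal levels). In each pair the gene that rose more is written first, and each ratio is higher in the 3 stimulated libraries. Orc1 over Orc4 moves most, with 2.701 to 3.04 in stimulated libraries and 0.0700 to 0.267 in unstimulated libraries.

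The 6 subunits of the MCM2-7 helicase, the ring that unwinds DNA at the fork, rose in near parallel. All passed, with a median log2 fold change of 1.91. Mcm3 rose most and had 104, 103 and 100.1 RPKM in stimulated libraries, against 16.6, 17.5 and 29.4 RPKM in unstimulated libraries (log2 fold change 2.27, SE 0.20, limma adjusted p = 6.28e-05). Mcm4 rose least and had 89.1, 90.5 and 91.8 RPKM in stimulated libraries, against 24.9, 26.9 and 39.0 RPKM in unstimulated libraries (1.57, SE 0.16, limma adjusted p = 0.000111). Neither gene overlapped between the groups. Mcm5, Mcm6, Mcm7 and Mcm2 lay between them, at log2 fold changes of 2.14, 1.95, 1.87 and 1.79. The most and the least abundant of the 6 genes differed 2.35-fold in mean RPKM in stimulated cells and 2.42-fold in unstimulated cells. These subunits form a ring with 1 copy of each, and their transcripts kept within about the same range of each other in both groups. On summed allelic counts Mcm6 did not pass with edgeR (0.15, adjusted p = 0.752), where it had 124 allelic reads over the 6 libraries. Exons of Mcm7 overlap those of Cops6, at 22.9 to 24.4 RPKM in stimulated libraries and 7.95 to 12.2 RPKM in unstimulated libraries, and of Ap4m1 on the opposite strand.

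Helicase activators held some of the largest rises. All 6 genes passed, with a median log2 fold change of 2.17. Cdc45, the factor that joins MCM2-7 and GINS in the active helicase, had 38.6, 36.7 and 39.0 RPKM in stimulated libraries, against 2.83, 2.58 and 7.06 RPKM in unstimulated libraries. This was the second largest rise of the 48 genes on the log2(RPKM + 1) scale, with no overlap between the groups (log2 fold change 3.02, SE 0.30, limma adjusted p = 9.95e-05). On summed allelic counts with edgeR, Gins2 (3.67) and Mcm10 (3.48) rose more than Cdc45 (3.39). The GINS subunits split, since Gins2 and Gins1 rose by 2.19 and 2.15 and Gins3 and Gins4 by 0.99 and 0.75. Gins4 had 22.0, 22.3 and 20.96 RPKM in stimulated libraries, against 11.4, 11.4 and 15.0 RPKM in unstimulated libraries (SE 0.11, limma adjusted p = 0.000668). It was the most abundant GINS gene in both groups, and its libraries did not overlap. Mcm10, an activator that is no part of the ring, rose by 2.59 (SE 0.34, limma adjusted p = 0.000396).

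All 9 polymerase and primase genes rose, with a median log2 fold change of 1.57. Pole, the catalytic subunit of the polymerase of the leading strand, had 13.99, 15.0 and 14.2 RPKM in stimulated libraries, against 1.61, 1.62 and 5.05 RPKM in unstimulated libraries (log2 fold change 2.15, SE 0.32, limma adjusted p = 0.000752). Pold3, an accessory subunit of polymerase delta, rose least and had 19.0, 21.3 and 20.9 RPKM in stimulated libraries, against 9.46, 8.22 and 11.97 RPKM in unstimulated libraries (0.99, SE 0.13, limma adjusted p = 0.000382). The groups did not overlap for either gene. Pold1, the catalytic subunit of polymerase delta, and Pold2, an accessory subunit, rose by 1.96 and 1.85, and Pole2, an accessory subunit of polymerase epsilon, by 1.39. Prim1, the catalytic primase subunit, rose by 1.73 and its partner Prim2 by 1.07. Pola1, the catalytic subunit of polymerase alpha and the X-linked member of the set, had 14.2, 14.1 and 13.5 RPKM in stimulated libraries, against 3.12, 2.79 and 7.04 RPKM in unstimulated libraries (1.57, SE 0.28, limma adjusted p = 0.00162). Its accessory subunit gene Pola2 rose by 1.35.

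Of the clamp and its loader all 6 genes rose, with a median log2 fold change of 1.41. Pcna encodes the ring that tethers polymerases to DNA and was the most abundant of the 48 genes in both groups, at 126, 122 and 119.8 RPKM in stimulated libraries, against 54.8, 62.4 and 72.6 RPKM in unstimulated libraries. It rose least in its class, with no overlap between the groups (log2 fold change 0.95, SE 0.10, limma adjusted p = 0.000154). Its processed copy Pcna-ps2 on chromosome 19 was listed at 7.74, 6.65 and 6.40 RPKM in stimulated libraries, against 3.55, 1.94 and 2.699 RPKM in unstimulated libraries, and reads of near-identical copies may be split between them. Rfc4, a small subunit of the clamp loader, rose most and had 30.5, 31.4 and 27.0 RPKM in stimulated libraries, against 3.46, 5.53 and 10.2 RPKM in unstimulated libraries (2.15, SE 0.31, limma adjusted p = 0.000623). Its exons overlap those of Eif4a2 on the opposite strand, which was more abundant and moved the other way, at 51.0 to 52.8 RPKM in stimulated libraries and 83.7 to 101 RPKM in unstimulated libraries. Rfc3 and Rfc5, further small subunits, rose by 1.89 and 1.82, and the large subunit Rfc1 and the small subunit Rfc2 by 0.99 and 0.98.

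RPA, which coats single-stranded DNA in replication and in repair, had smaller rises. All 3 genes rose, with a median log2 fold change of 1.01. Rpa3, the small subunit, had 11.3, 10.9 and 10.1 RPKM in stimulated libraries, against 3.76, 2.87 and 5.27 RPKM in unstimulated libraries (log2 fold change 1.27, SE 0.17, limma adjusted p = 0.000464). Rpa1, the large subunit with the main DNA-binding domains, had 41.2, 41.8 and 40.8 RPKM in stimulated libraries, against 30.5, 31.1 and 34.5 RPKM in unstimulated libraries. The difference was small but free of overlap (0.36, SE 0.06, limma adjusted p = 0.00148), and it was the smallest rise of the 46. Rpa2, the middle subunit, rose by 1.01.

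The genes of Okazaki fragment maturation, which join the pieces of the lagging strand, all rose, with a median log2 fold change of 1.49. Lig1, the ligase that seals the nicks, had 41.5, 42.2 and 40.8 RPKM in stimulated libraries, against 5.69, 6.55 and 15.8 RPKM in unstimulated libraries (log2 fold change 2.17, SE 0.33, limma adjusted p = 0.000825). Fen1, the flap nuclease, rose by 1.49, and its exons overlap those of Tmem258, at 28.6 to 30.8 RPKM in stimulated libraries and 12.1 to 14.3 RPKM in unstimulated libraries. Dna2, a nuclease and helicase that trims long flaps, had 5.16, 5.42 and 5.05 RPKM in stimulated libraries, against 2.66, 2.32 and 4.93 RPKM in unstimulated libraries. The stimulated libraries lay just above unstimulated replicate 3 and well above the other 2 unstimulated libraries. This change was near the threshold (0.58, SE 0.21, limma adjusted p = 0.0418) and was lost when any library but unstimulated replicate 3 was left out (limma adjusted p = 0.0853 to 0.117) or when genes of low level were kept in the test (0.0739).

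Fork protection genes all rose, with a median log2 fold change of 1.86 over 4 genes. Tipin, the partner of TIMELESS in the complex that steadies the fork, had 43.8, 42.8 and 41.7 RPKM in stimulated libraries, against 4.95, 5.46 and 13.6 RPKM in unstimulated libraries (log2 fold change 2.41, SE 0.33, limma adjusted p = 0.000462). Wdhd1, which links the helicase to polymerase alpha, had 12.6, 12.6 and 11.8 RPKM in stimulated libraries, against 3.24, 3.598 and 7.47 RPKM in unstimulated libraries (1.28, SE 0.25, limma adjusted p = 0.00302). The groups did not overlap for either gene, and Wdhd1 did not pass on summed allelic counts with edgeR (0.73, adjusted p = 0.0584), where it had 402 reads over the 6 libraries. Clspn, the gene of the checkpoint adaptor claspin, rose by 2.13 and Timeless by 1.59.

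Chromatin assembly factor 1 places histones on new DNA, and its subunit genes rose apart. Chaf1a, the large subunit that binds PCNA, had 25.3, 26.5 and 25.8 RPKM in stimulated libraries, against 2.27, 2.30 and 7.05 RPKM in unstimulated libraries (log2 fold change 2.60, SE 0.34, limma adjusted p = 0.000396). Chaf1b, the middle subunit, had 8.39, 7.84 and 7.94 RPKM in stimulated libraries, against 2.22, 1.88 and 3.48 RPKM in unstimulated libraries (1.38, SE 0.16, limma adjusted p = 0.000239). Their ratio was 3.02, 3.39 and 3.25 in stimulated libraries, against 1.02, 1.22 and 2.02 in unstimulated libraries. Tipin over Timeless stood at 2.51 to 2.66 in stimulated libraries and 1.34 to 1.77 in unstimulated libraries. Orc6 over Orc2 stood at 0.956 to 1.16 in stimulated libraries and 0.501 to 0.647 in unstimulated libraries. These pairs too were picked after their levels were seen, with the gene that rose more written first. That choice sets the direction, and no ratio was tested. In all, exons of 12 of the 48 genes overlap those of a protein-coding gene on the opposite strand, and without a statement that counting used strand, reads of such partners cannot be told apart.

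**Figure D4:**
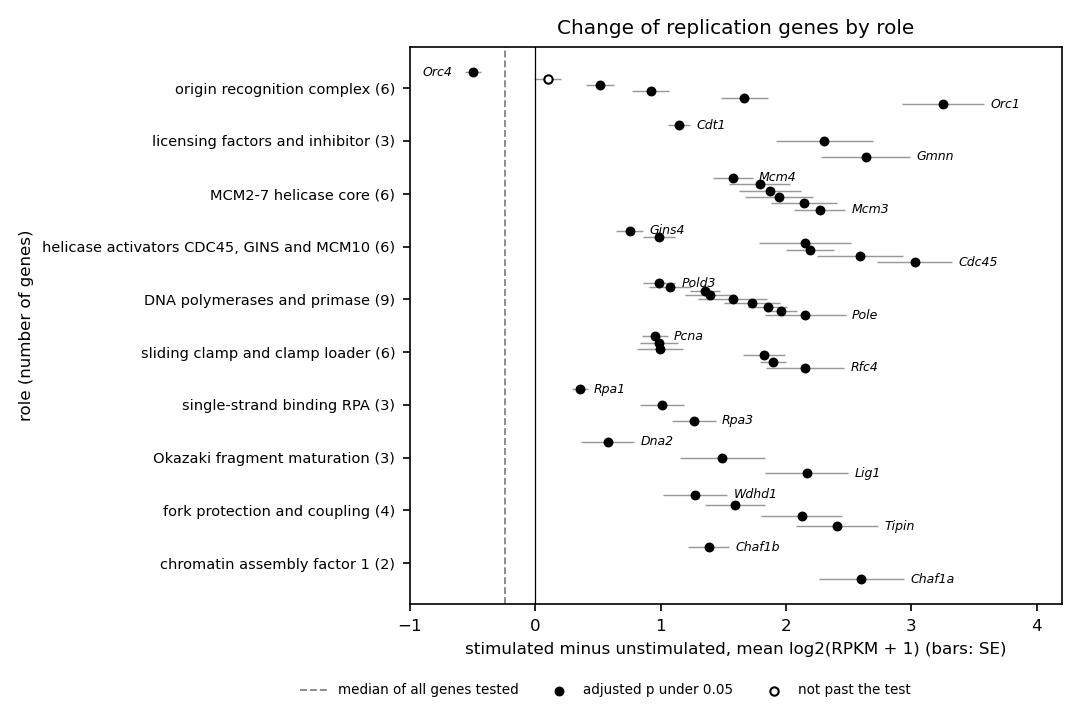
Difference of mean log2(RPKM + 1), stimulated minus unstimulated, for the 48 genes by role, with bars of 1 standard error (filled points: limma adjusted p under 0.05; open point: not passed; dashed line: median of all genes tested, -0.24). The MCM2-7 subunits lie close together, between 1.57 and 2.27, whereas the ORC subunits spread from -0.50 to 3.25.

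Genes around the core machinery were described from 3 further lists and a mitotic one. Genes with other replication roles numbered 41 in the test, and their median was 1.03. Of them 33 rose and 2 fell, against 31.2% and 48.9% of all genes tested. Top2a, which untangles copied DNA, rose by 3.36, Uhrf1, which maintains DNA methylation, by 2.89, and Hells, a chromatin remodeller, by 2.67. The 2 that fell were Top1 (-0.23) and Mcm9 (-0.96), a helicase relative outside the ring that acts in repair. Top1 was at 14.1 ± 0.311 RPKM in stimulated libraries and 16.7 ± 1.49 RPKM in unstimulated libraries (SD, n = 3 each, limma adjusted p = 0.0264).

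Of 12 genes of nucleotide supply 9 rose and 2 fell, against 31.2% and 48.9% of all genes tested, with a median of 1.82. Rrm2, the S phase subunit of ribonucleotide reductase, rose by 3.27, as did Shmt1 of the folate cycle (3.27), and Dut, which removes dUTP, rose by 2.56. The genes that fell were Rrm2b (-0.42), the subunit of ribonucleotide reductase for resting cells, and Samhd1 (-0.56), which degrades nucleotides. Samhd1 was at 31.8 ± 1.56 RPKM in stimulated libraries and 47.2 ± 2.71 RPKM in unstimulated libraries (SD, n = 3 each, limma adjusted p = 0.000231). Of 12 S phase cyclin, kinase and E2F genes 11 rose, against 31.2% of all genes tested, and 1 did not pass with limma. Their median was 1.68 and their lowest value 0.44. Ccna2, which encodes cyclin A2, rose by 2.99, Tfdp1, the partner of E2F proteins, by 2.23 and Ccne1, which encodes cyclin E1, by 2.03, and the smallest changes past the test were E2f7 (0.92) and Skp2 (0.67). All 26 mitotic genes rose, against 31.2% of all genes tested, with a median of 2.69. Cdc20 (3.43), Aurkb (3.43) and Cdk1 (3.31) led them, and Cenpa (1.26) and Kif23 (1.22) came last.

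The allelic reads then allowed the mus and the cast copy of each replication gene to be compared within the same libraries. A changed share of cast reads was tested with edgeR (quasi-likelihood, allele by group, Benjamini-Hochberg over all genes) for 47 of the 48 genes, since Gins3 had 0 allelic reads. The share changed in 8 of the 47 genes, or 17.0%, against 10.2% of all 12834 genes tested. Of the 24 replication genes with at least 7210 allelic reads, the median of the set, the share changed in 6 (25%), against 20.1% of the 3106 genes of the whole table past the same limit. The cast share was higher in stimulated cells in 3 genes (Mcm2, Pole2 and Timeless), against 5.61% of all genes, and lower in 5 (Mcm3, Pcna, Rfc3, Rpa1 and Chaf1b), against 4.63%. With the replicate number as a block Fen1 also passed (edgeR adjusted p = 0.0157, against 0.0764 without it), and the counts over all genes were 899 higher and 767 lower, against 720 and 594 without the block.

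The genes Rpa1, Rfc3, Pcna and Chaf1b, passed under all 10 alternative settings as well. Rpa1 had cast shares of 48.0%, 52.3% and 50.8% in stimulated libraries, against 60.3%, 62.7% and 61.7% in unstimulated libraries (log2 change of the ratio -0.66, edgeR adjusted p = 0.00017). Its cast reads per M allelic reads (RPM) were 106 ± 6.22 in stimulated libraries and 98.2 ± 2.66 in unstimulated libraries (SD, n = 3 each). Its mus reads were 104 ± 4.13 RPM in stimulated libraries and 61.3 ± 1.53 RPM in unstimulated libraries. The rise of Rpa1 was thus 1.70-fold for the mus copy and 1.08-fold for the cast copy, with total allelic reads as library size. The TMM factors of edgeR, which adjust library size, were 0.912 to 0.924 in stimulated and 1.08 to 1.10 in unstimulated libraries. They would make both folds larger and leave the cast shares as they are.

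Rfc3 had cast shares of 51.4%, 50.1% and 47.7% in stimulated libraries, against 68.1%, 64.0% and 58.6% in unstimulated libraries (-0.81, edgeR adjusted p = 0.00491). Both copies were higher in stimulated cells, by 7.08-fold for mus and by 4.06-fold for cast in RPM. Chaf1b had shares of 43.5%, 45.7% and 45.2% in stimulated libraries, against 54.5%, 58.0% and 54.0% in unstimulated libraries (-0.61, edgeR adjusted p = 0.0068). Pcna had shares of 31.9%, 31.0% and 30.9% in stimulated libraries, against 35.6%, 36.1% and 35.7% in unstimulated libraries (-0.29, edgeR adjusted p = 0.00584). Pcna was read mainly from the mus copy in all 6 libraries, and the groups overlapped for none of these genes. Pcna lies on chromosome 2 at 132249162 to 132253314 (mm10, minus strand), where its copy on chromosome 19 could take part of the reads of either allele.

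The other changed shares were less firm. Pole2 had 53.7%, 49.5% and 51.7% in stimulated libraries, against 35.7%, 43.9% and 45.5% in unstimulated libraries (0.58, edgeR adjusted p = 0.048). Timeless had 57.1%, 57.1% and 56.6% in stimulated libraries, against 51.9%, 52.7% and 49.7% in unstimulated libraries (0.33, edgeR adjusted p = 0.0422). Mcm2 had 56.2%, 53.7% and 54.4% in stimulated libraries, against 50.8%, 46.8% and 51.7% in unstimulated libraries (0.28, edgeR adjusted p = 0.0308). In these 3 genes every stimulated share was the higher. Mcm3 had 50.9%, 51.3% and 52.0% in stimulated libraries, against 57.2%, 58.3% and 53.2% in unstimulated libraries (-0.27, edgeR adjusted p = 0.0234), and every stimulated share was the lower. Of the 10 alternatives Mcm2 passed in 6, Mcm3 in 5, and Pole2 and Timeless in 4 each.

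**Figure D5:**
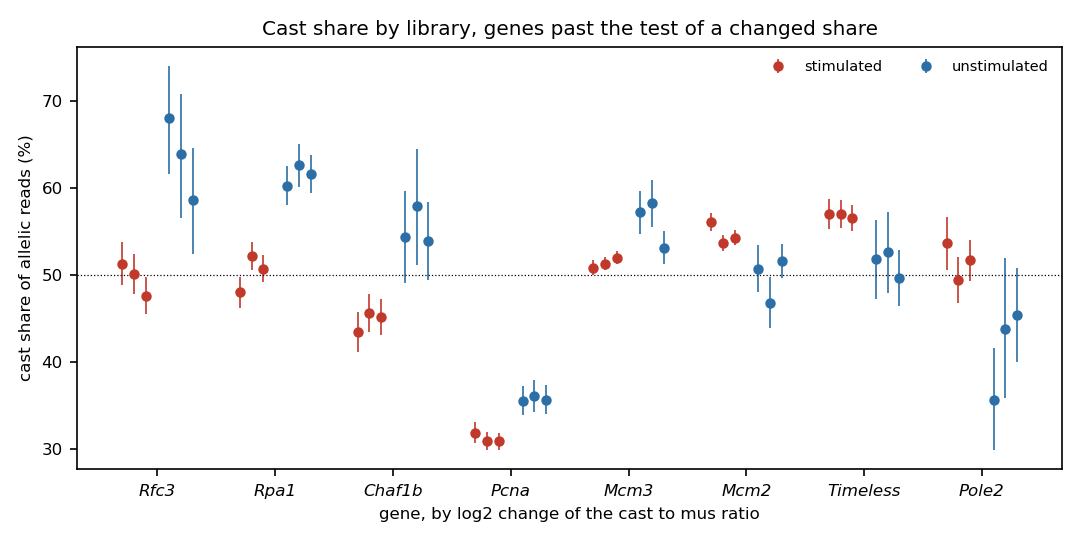
Share of allelic reads from the cast copy in each library for the 8 genes past the edgeR test of a changed share, with 95% exact Clopper-Pearson intervals (red: stimulated; blue: unstimulated; 3 libraries each; dotted line: 50%). The axis starts above 0, and the shares of Rfc3, Rpa1, Chaf1b, Pcna and Mcm3 are lower in stimulated libraries while those of Mcm2, Timeless and Pole2 are higher.

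Unequal use of the copies over both groups together was found in 21 of the 47 genes, or 44.7%, against 45.3% of all genes tested. Past the limit of 7210 reads it was found in 13 of 24 replication genes (54.2%), against 58.1% of the 3106 genes. More cast reads were found in 8 genes, against 17.2% of all genes, and more mus reads in 13, against 28.1%. The 13 are 12 autosomal genes and the X-linked Pola1, whose cast copy lies on the X that the cross silences. X-linked genes are also in the counts over all genes. This lean to mus depended on scaling, since a library size for each allele gave 9 replication genes with more cast and 9 with more mus reads, and 2900 and 2762 among all genes, against 2206 and 3611 with 1 library size for both alleles. Gmnn, Mcm7, Fen1 and Chaf1a did not pass on that scale. The mean cast shares of the 46 autosomal genes ran from 33.5% to 56.6%, while autosomal reads as a whole stood at 49.3% to 49.4% in each library. After Pcna (log2 ratio of cast to mus -0.99, edgeR adjusted p = 9.39e-13), the largest skews to mus were those of Rfc2 (-0.77), Dna2 (-0.75), Pole (-0.65) and Pold1 (-0.57). Dna2 was at 39.8% ± 1.45 cast in stimulated libraries and 34.6% ± 0.873 in unstimulated libraries (SD, n = 3 each). Skews to cast were smaller, with Rfc3 (0.39), Rpa1 (0.35) and Mcm4 (0.31) first. For Rfc3 and Rpa1 the mean skew came from unstimulated libraries (63.6% and 61.6% cast), with near equal shares in stimulated ones (49.7% and 50.4%). Whether reads map equally well to both genomes was not tested.

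Pola1 is X-linked (chromosome X, 93304767 to 93632155 on mm10, minus strand), and its cast copy lies on the X that the cross silences. It had 0 of 1664, 0 of 1832 and 0 of 1954 allelic reads from cast in stimulated libraries, which allows shares of up to 0.180%, 0.164% and 0.154%. In unstimulated libraries it had 1 of 219 reads (0.457%, 95% exact Clopper-Pearson interval 0.0116% to 2.52%), 0 of 144 and 0 of 573, the last 2 allowing up to 2.08% and 0.524%. Its RNA was therefore read from the mus X apart from 1 read, and no difference between the groups was detectable at this depth. Other X-linked genes apart from Xist summed to cast shares of 3.70% to 3.78% in stimulated libraries and 3.79% to 3.87% in unstimulated libraries. Intervals and floors (3 counts of the total) cover counting error only.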

How the data were processed

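RNA of 3 stimulated and 3 unstimulated samples was sequenced from libraries of a stranded total RNA kit that depletes ribosomal RNA, per the labels' protocols. STAR 2.7.1a, featureCounts and mm10 are named in the submitters' processing notes. The authors deposited RPKM per gene for both alleles together, and counts of reads per gene assigned to the mus or the cast allele, per the file headers. The annotation, the use of strand in counting, the RPKM denominator and the way reads were given to an allele are each not given in the sources used here. Allelic depth per library is given with the results and limits low genes.

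From the deposited RPKM, log2(RPKM + 1) was compared with limma 3.58.1 (trend, two-sided, R 4.3.3) for genes that reached an RPKM of 1 in 3 libraries or more. From the deposited counts, the allele by group interaction and the mean allele effect were tested with edgeR 4.0.16 (quasi-likelihood, a term for each library), where a gene needed 30 or more allelic reads summed over each group. P-values were adjusted by Benjamini-Hochberg across every gene in the fit, and 0.05 was the threshold. DESeq2 1.42.0 served as an alternative, beside other pseudocounts, filters, scalings and left-out libraries. The limma test, the edgeR allele by group test and the edgeR fit of summed allelic counts were tried on simulated data with known changes. The mean allele effect and DESeq2 were not. The limma simulation took its spread from stimulated libraries only. Positions come from GENCODE M21, promoters from RefSeq (GRCm38.p6).

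The members, gene lists and tests were chosen with earlier results of these data known. Per role, the genes with the largest and smallest log2 fold change are given in every library, with each gene that fell, did not pass or was not tested, Pola1, and those past the test of a changed share. Of each further list, the 3 largest and 2 smallest changes past the test are named. Printed values come from fits without a replicate block, and the blocked value is given where it changes a call. Equal replicate numbers met the rule for pairs in the allelic counts, where cast to mus ratios, centred within groups, correlated at 0.28, 0.30 and 0.18 across 9043 genes between libraries of the same number, and not in RPKM (0.00603, 0.0611 and 0.0908).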

Additional observations from a re-analysis of the deposited data

Results flagged for a closer look

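The log2 change of the cast to mus ratio, stimulated minus unstimulated, passed the edgeR test of an allele by group interaction in 8 of 47 replication genes. This was 17.0%, against 10.2% of all genes tested, and 25% against 20.1% among genes with at least 7210 allelic reads. In these 8 genes the rise differed between the 2 copies. The values were -0.81 for Rfc3, -0.66 for Rpa1, -0.61 for Chaf1b, -0.29 for Pcna, -0.27 for Mcm3, 0.28 for Mcm2, 0.33 for Timeless and 0.58 for Pole2. The cast share of Mcm2 was higher in stimulated cells and that of Mcm3 lower, while the level of both genes rose (log2 fold changes 1.79 and 2.27). Of the 10 alternative settings Mcm2 passed in 6, Mcm3 in 5, and Pole2 and Timeless in 4 each. Library depth (M, mega reads) differed with the groups (14.9 M to 20.2 M allelic reads in stimulated libraries, 9.61 M to 11.9 M in unstimulated libraries), and its part in these changes was not tested.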

How the results depend on the processing

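Of the 46 rises, 43 passed on summed allelic counts with edgeR and with DESeq2, over the 47 genes with such reads, and the count of genes lower was 0 with both (Orc4 0.017 and -0.010, Orc5 0.014 and -0.013, edgeR and DESeq2; no replication gene had a negative value with edgeR, and these 2 alone did with DESeq2, neither at an unadjusted p under 0.05). Over all genes these fits gave 5382 higher and 5658 lower with edgeR and 5206 and 5642 with DESeq2, against 4148 and 6494 with limma on RPKM. The cause was not tested. Leaving out 1 library gave 45 to 46 replication genes higher and 1 to 1 lower, and 3464 to 4465 and 4522 to 6168 among all genes. Without a filter on low values there were 4753 genes higher and 9158 lower. A changed cast share was higher in 1 replication gene with DESeq2, and on leaving out 1 library in 0 to 2, with 4 to 7 lower (513 to 579 and 427 to 478 among all genes). More cast reads were found in 6 to 8 replication genes and more mus reads in 9 to 12 (1931 to 1970 and 3161 to 3284 among all genes). The replicate number as a block gave 899 and 767 genes with a changed share, and 4048 and 6416 genes with changed RPKM, of them 46 and 1 replication genes, and apart from Fen1 it changed no call on a replication gene in these 2 tests. Depth limits the allelic tests of Mcm6, Wdhd1 and Rpa3.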

Other observations

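A few replication genes had far fewer allelic reads than their RPKM would give at the set's usual rate. The 47 genes with such reads had a median of 144 allelic reads per kilobase of exon and per unit of mean RPKM over the 6 libraries, while Mcm6, among the most abundant genes of the set, had 124 reads in all, or 0.48 on that scale, and Wdhd1 had 402, or 6.41. Rpa3 had 349 reads, or 41.8 on that scale, and Gins3 had none and was not tested. Cdc45 (33.0) and Rfc5 (39.9) stood below Rpa3 on that scale but had more reads, 2443 and 1809. For Mcm6, Wdhd1 and Rpa3 the allelic tests carry little weight. The number of sequence differences between the strains in these genes was not tested. Unstimulated replicate 3 was at least 2 times the mean of unstimulated replicates 1 and 2 in 20 of the 48 genes, with Gins1 (4.14), Orc1 (4.10), Mcm10 (4.03), Cdc6 (3.96) and Clspn (3.69) first and Orc4 (1.09) and Rpa1 (1.12) last. The share of all genes past that limit was not counted, and their median was 1.08 times. The stimulated mean was still a median of 2.33 times that library, and 46 of the 48 genes were higher in every stimulated library than in it. Since it was the highest unstimulated library in all 48 genes, these are the 46 genes above every unstimulated library, against 32.7% of all genes tested.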
